A study of Mus musculus with 11 samples.

Results

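The genes described here are 38 imprinted genes of the mouse, among them H19 and Meg3, taken from a list of gene names that was drawn up with earlier results of these data known. The bulk RNA-seq table listed 24 of them among 12588 genes. The wild-type serum/LIF, 2i/LIF and gel tables of the single-cell data and that of the library labelled JupHigh listed 35 each, and that of the library labelled JupLow listed 37, among 21926 to 23139 genes per table. A gene that a table does not list has no value there and is not read as 0.

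All 11 libraries came from mouse embryonic stem (ES) cells grown with LIF, a cytokine that sustains self-renewal. The 6 bulk libraries were Smart-seq2 preparations of about 1000 cells each of the line Rex1GFPd2 in 2i/LIF, a medium with inhibitors of MEK and GSK3, with 3 grown in agarose gel and 3 on tissue-culture plastic. The 5 single-cell libraries were made with inDrop, which counts transcripts by unique molecular identifiers (UMIs). Of these, 3 held wild-type E14 cells: a library from plastic with serum/LIF, a library from plastic with 2i/LIF, and a library from agarose gel with serum/LIF. The other 2 held cells with plakoglobin (gene Jup) driven by the constitutive CAG promoter at a high or a low level, in serum/LIF on plastic. Their parent line is not named in the labels. With 1 library for each single-cell condition, no test was made between them and replicate spread is unknown. Each interval given covers counting error only. For the bulk libraries nothing says that the 3 of a group came from separate cultures, so their p-values measure the spread between these libraries, which may be technical.

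An imprinted gene is transcribed mainly from the copy inherited from the mother or from the father. The choice is set by DNA methylation laid down in the germ line at control regions, and it is kept in the early embryo by factors such as the zinc-finger protein ZFP57 with TRIM28. Imprinted genes lie in clusters, often with a long non-coding RNA, and many act on growth of the embryo and placenta: paternally expressed members such as Igf2 and Peg10 tend to promote it, maternally expressed members such as Cdkn1c, Phlda2 and Grb10 tend to restrain it. ES cells are known to lose imprinted methylation in culture. The values below are total transcript levels and do not separate the 2 parental copies.

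Jup, the gene the study manipulated, was checked first. In bulk its scaled read counts were 103, 90.9 and 96.2 in gel and 9.56, 9.39 and 30.4 on plastic. In single cells, Jup had 47.8 CPM (UMIs of a gene per 1000000 UMIs of the library; 95% interval 41.5 to 54.8) in the JupHigh library and 37.9 (31.1 to 45.7) in the JupLow library. Wild type had 36.7 CPM (28.8 to 46.0) in serum/LIF and 46.7 (42.2 to 51.6) in 2i/LIF. These intervals overlap, so both lines are named here by their labels. The gel library in serum/LIF had 38.1 CPM (17.4 to 72.3). Its log2 ratio against plastic was 0.055 (-1.13 to 1.06), so the higher level in gel was seen in bulk alone. Cells were barcodes with at least 1000 UMIs: 725 in wild-type serum/LIF, 2889 in 2i/LIF, 112 in gel, 1200 in JupLow and 2153 in JupHigh, with median depths of 1731.5 to 2465 UMIs and 0 cell barcodes shared between libraries. The list of 6 ES cell markers summed to 1240 to 3244 CPM, with Sox2 not listed in the wild-type serum/LIF table. In bulk the same list summed to 7228 to 7389 in gel and 5274 to 6093 on plastic.

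The wild-type serum/LIF table departed from the others more often at genes whose exons overlap those of another gene, and 20 of the 38 members are such genes. Its CPM was compared with the median of the other tables that list a gene, for genes with at least 2 such tables. Departures of 8-fold or more fell on 14.7% of 633 genes that share exon bases with a gene on the same strand. They fell on 5.81% of 2133 genes with such an overlap on the other strand alone, on 2.29% of 5229 genes with none, and on 13.3% of 120 genes whose symbol is not in the annotation used. Whether another counting setting or another annotation made this table differ was not tested. In the GENCODE M21 annotation (GRCm38), 9 members share exon bases with a gene on the same strand: H19 (with Mir675), Igf2, Meg3, Rian, Mirg, Usp29, Snrpn, Snurf and Commd1. A further 11 do so with a gene on the other strand alone, among them Cdkn1c, Plagl1, Mest, Zrsr1, Gnas and Kcnq1ot1, and 18 share no exon bases. Spans that overlap without shared exon bases, as for Mcts2 with H13 and Airn with Igf2r, were not counted. Of the members, 28 could be compared at 20 CPM or more in at least 1 library. Snrpn of the 5 with a same-strand overlap, and Zrsr1 and Gnas of the 11 with an overlap on the other strand, departed by 8-fold or more. None of the 12 members without shared exon bases did so, and these ranged from -0.0019 to 1.92 on the log2 scale. Ratios against wild type in serum/LIF are therefore given with this flag, and the comparison of JupHigh with JupLow, which does not use that table, is described before the others.

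**Figure D1:**
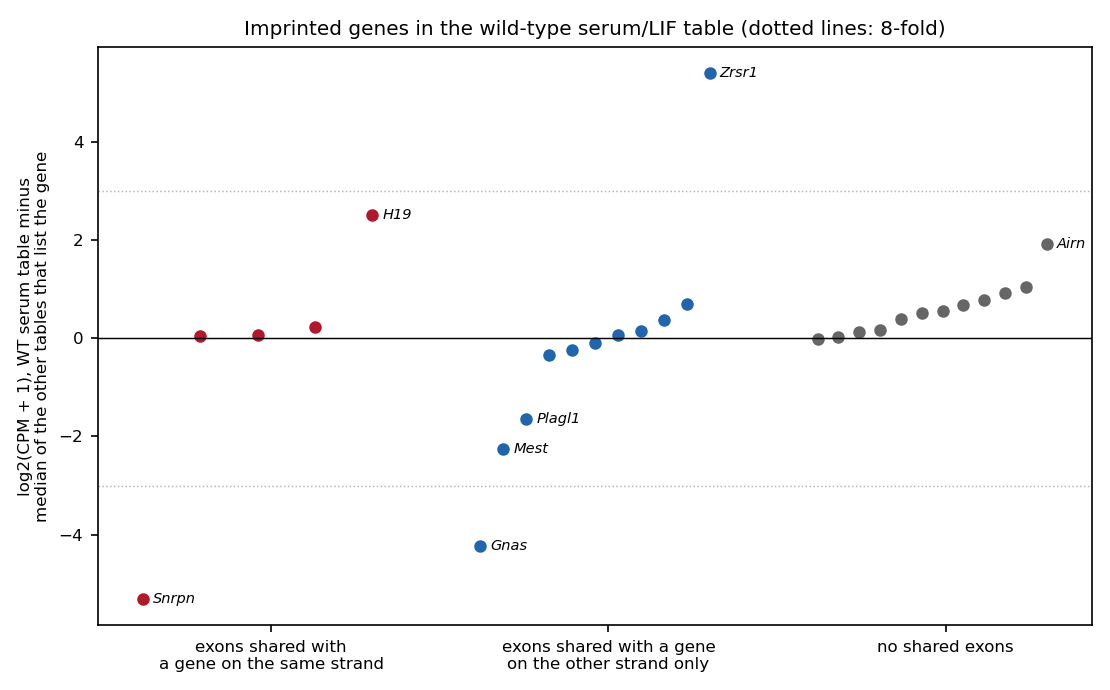
Each point is 1 imprinted gene, and the y axis gives log2(CPM + 1) in the wild-type serum/LIF table minus the median of the other tables that list the gene, by overlap class on the x axis. Zrsr1 (5.41), Gnas (-4.23) and Snrpn (-5.31) lie beyond the 8-fold lines, and the 12 genes without shared exons lie inside them.

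H19, a maternally expressed non-coding RNA beside Igf2, was clearly detected in 3 single-cell libraries and was at or near 0 in the other 2. The gene lies on chromosome 7 (142575529 to 142578143, minus strand) and contains the precursor of miR-675, whose mature products from RefSeq (GRCm38.p6) are shown because they are the same-strand overlap flagged above, with the seed (bases 2 to 8) in capitals.
mmu-miR-675-5p: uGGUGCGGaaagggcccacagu
mmu-miR-675-3p: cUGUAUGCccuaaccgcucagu
H19 had 429 UMIs in wild-type serum/LIF (213 CPM, 193 to 234), 17 in gel (72.0 CPM, 41.9 to 115) and 477 in JupLow (166 CPM, 151 to 181). It had 4 UMIs in 2i/LIF (0.483 CPM, 0.132 to 1.24) and 0 in JupHigh, where the upper limit is 0.856 CPM. With JupHigh set to a floor of 3 UMIs, H19 was 238-fold lower there than in JupLow. By counting error the log2 ratio was at most -7.59. H19 was 440-fold lower in 2i/LIF than in serum/LIF, with a log2 ratio of -8.78 (-10.66 to -7.42). Barcodes under 500 UMIs were taken as free RNA, and whether some were small cells was not tested. In wild-type serum/LIF, 5905 such barcodes held 2170169 UMIs, against 2017950 in the cells. H19 in such barcodes was at 175 CPM in wild-type serum/LIF, 71.2 in gel, 174 in JupLow and 1.73 in JupHigh, close to the level in the cells of the first 3. In 2i/LIF this was not measured, since 1 barcode was that small. Igf2, the growth factor of the same cluster, was listed in 2 tables, with 63 UMIs (31.2 CPM) in wild-type serum/LIF and 0 in JupLow. It shares exon bases with Gm49394.

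The neighbouring Kcnq1 cluster of chromosome 7 holds Cdkn1c, an inhibitor of cyclin-dependent kinases, and Phlda2, which restrains growth of the placenta. Phlda2 had 233 CPM (215 to 251) in JupLow, 94.7 (81.7 to 109) in wild-type serum/LIF, 88.9 (55.0 to 136) in gel, 38.5 (32.9 to 44.8) in JupHigh and 3.38 (2.25 to 4.88) in 2i/LIF. Cdkn1c had 94.8 CPM (83.9 to 107) in JupLow, 59.3 (32.4 to 99.5) in gel, 35.7 (27.9 to 44.9) in wild-type serum/LIF, 9.05 (6.43 to 12.4) in JupHigh and 1.81 (1.01 to 2.99) in 2i/LIF. For both genes JupLow was highest, 2i/LIF lowest and JupHigh next to it, with intervals that overlap only between gel and its neighbours. JupHigh stood 6.04-fold below JupLow for Phlda2 and 10.5-fold for Cdkn1c. Kcnq1ot1, the long RNA whose transcription silences this cluster on the paternal copy, had a different order. It had 104 CPM (97.0 to 111) in 2i/LIF, 103 (93.4 to 113) in JupHigh and 101 (87.7 to 116) in wild-type serum/LIF, against 51.8 (43.8 to 60.8) in JupLow and 46.6 (23.2 to 83.3) in gel. The first 3 cannot be ordered within counting error. Cd81, a tetraspanin of the same cluster, ranged from 165 CPM in gel to 306 (286 to 327) in JupLow. Nap1l4, a histone chaperone, ranged from 60.8 to 80.8 CPM and Tssc4 from 8.47 to 25.0.

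Grb10, an adaptor that dampens insulin signalling, followed the same order at its ends, with 130 CPM (117 to 144) in JupLow and 4.47 (3.14 to 6.16) in 2i/LIF. JupHigh (57.8) and wild type in serum/LIF (52.0) did not differ beyond their intervals. Peg10, a retrotransposon-derived gene needed for the placenta, had 159 CPM (145 to 174) in JupLow, 146 (130 to 163) in wild-type serum/LIF and 102 (65.1 to 151) in gel. It had 67.5 CPM (60.0 to 75.7) in JupHigh and 23.5 (20.4 to 27.1) in 2i/LIF. Its neighbours Sgce, which encodes epsilon-sarcoglycan, and Ppp1r9a had 28.7 and 48.6 CPM in wild-type serum/LIF, 5.91 and 11.6 in 2i/LIF, 17.0 and 44.5 in JupLow, and 12.3 and 35.3 in JupHigh. Neither differed between JupHigh and JupLow beyond counting error, with log2 ratios of -0.47 (-1.06 to 0.12) and -0.33 (-0.68 to 0.016). Peg3, a zinc-finger gene expressed from the paternal copy, had 93.7 CPM (80.8 to 108) in wild-type serum/LIF, 63.2 (54.4 to 73.1) in JupLow and 59.3 (32.4 to 99.5) in gel. It had 30.3 (26.7 to 34.3) in 2i/LIF and 27.8 (23.1 to 33.3) in JupHigh, and these last 2 do not differ beyond their intervals.

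Plagl1, a zinc-finger transcription factor that restrains the cell cycle, ran the other way. It had 44.3 CPM (39.9 to 49.1; 367 UMIs) in 2i/LIF and 30.6 (25.6 to 36.3; 132 UMIs) in JupHigh. It had 7.64 (4.79 to 11.6; 22 UMIs) in JupLow, 5.45 (2.72 to 9.75; 11 UMIs) in wild-type serum/LIF and 0 UMIs in gel, which allows up to 15.6 CPM. JupHigh was 4.01-fold above JupLow.

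The promoter windows of 3 members are shown because these genes lay on opposite sides in the comparisons: Plagl1 was high in 2i/LIF and in JupHigh, Phlda2 was low in both, and Mest differed between gel and plastic. Mest has 3 RefSeq windows, and a window with matches is printed. Each window runs from 250 bases before to 50 bases after the RefSeq start (GRCm38.p6), on the gene's strand. Capitals mark the hexamer TGCCGC or, on the other strand, GCGGCA, the sequence that ZFP57 is known to bind when methylated.
Plagl1, chr10:13090582-13090881, plus strand: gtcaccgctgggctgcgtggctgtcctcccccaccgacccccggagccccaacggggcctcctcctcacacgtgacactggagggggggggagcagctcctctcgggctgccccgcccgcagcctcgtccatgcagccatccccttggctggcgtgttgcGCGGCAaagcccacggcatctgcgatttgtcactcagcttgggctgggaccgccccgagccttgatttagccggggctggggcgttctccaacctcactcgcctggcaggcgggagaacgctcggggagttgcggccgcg
Mest, chr6:30737800-30738099, plus strand: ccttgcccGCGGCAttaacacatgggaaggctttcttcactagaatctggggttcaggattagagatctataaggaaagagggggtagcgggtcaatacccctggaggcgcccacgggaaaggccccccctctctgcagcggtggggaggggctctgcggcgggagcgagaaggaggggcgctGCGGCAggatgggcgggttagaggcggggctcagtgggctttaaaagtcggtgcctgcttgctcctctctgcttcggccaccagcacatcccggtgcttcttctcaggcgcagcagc
Phlda2, chr7:143502475-143502774, minus strand: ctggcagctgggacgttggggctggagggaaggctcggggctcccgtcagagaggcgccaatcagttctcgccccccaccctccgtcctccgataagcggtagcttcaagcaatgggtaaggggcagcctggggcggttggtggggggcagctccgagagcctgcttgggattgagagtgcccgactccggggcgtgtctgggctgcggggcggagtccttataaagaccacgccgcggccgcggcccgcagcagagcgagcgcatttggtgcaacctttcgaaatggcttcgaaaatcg
The Plagl1 window holds 1 match, the printed Mest window 2 and the Phlda2 window 0. Of the other Mest windows, chr6:30737803-30738102 overlaps the printed window and holds 2, and chr6:30733256-30733555 holds 0. Among members past 2-fold between 2i/LIF and serum/LIF, Mest, Snrpn and Plagl1 (higher) and Grb10 and Nnat (lower) have a window with a match. Gnas (higher) and Igf2r, Peg3, Ppp1r9a, Phlda2, Zrsr1, H13 and Airn (lower) have none, and the others have no window. Whether matches go with direction was not tested. RefSeq windows were found for 32 of the 38 members, and 12 of these genes (37.5%) had a match in at least 1 window, against 13.1% of 27025 genes with a window. Snrpn and Snurf share a window, and with each window counted once, 12 of 47 member windows (25.5%) had a match, against 11.6% of all windows. The member windows were also richer in G and C, with a median of 57.7% against 52.7% over all windows. The part of base composition in the difference was not tested. These windows are transcription starts and need not be the germ-line control regions.

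**Figure D2:**
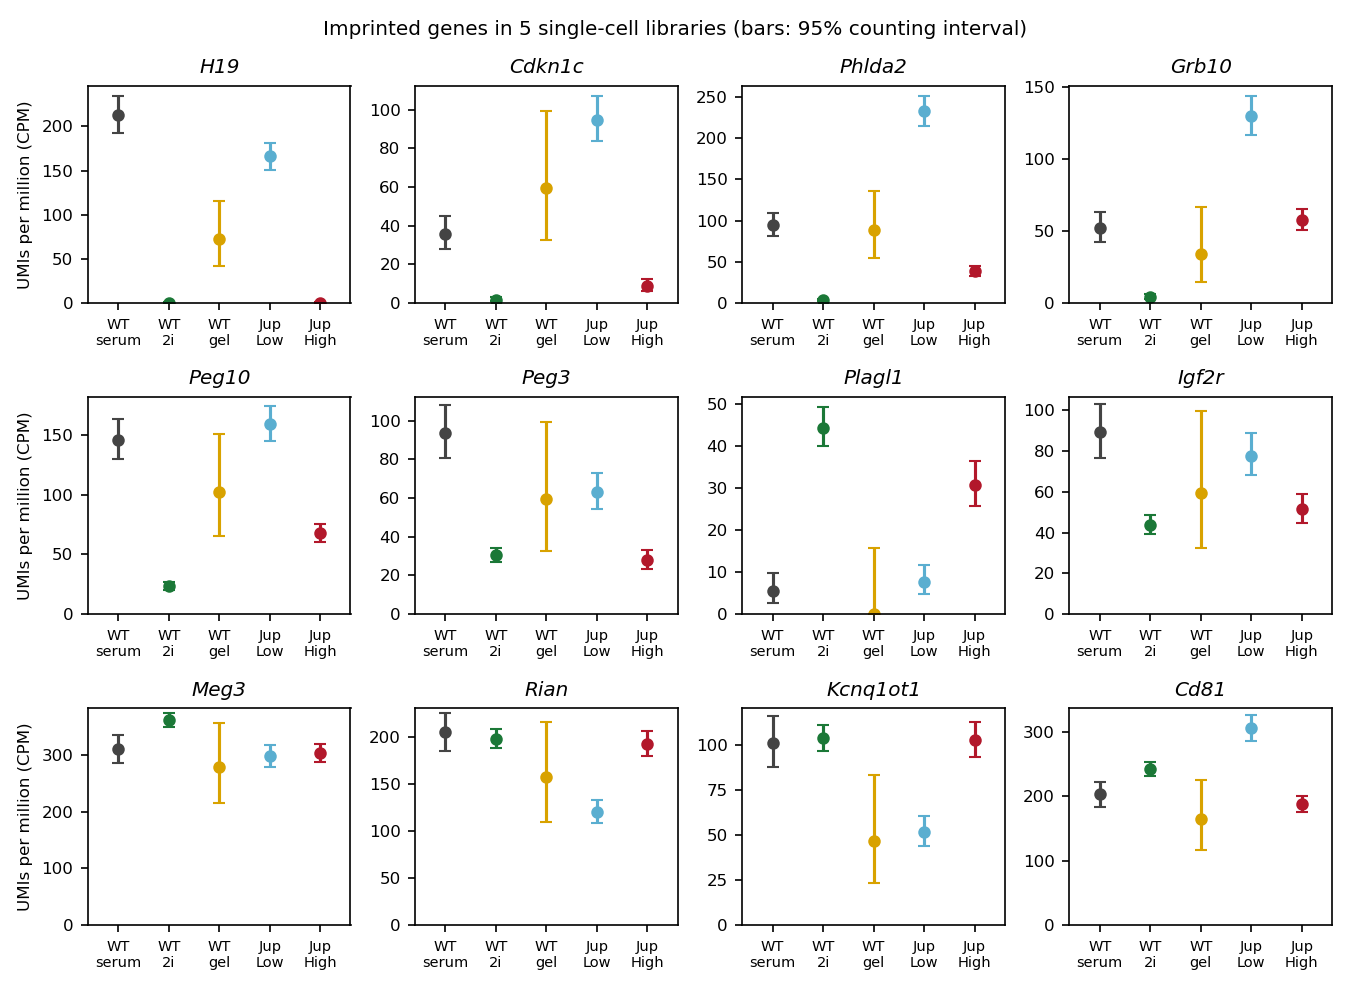
Each panel shows 1 imprinted gene, with CPM on the y axis and the 5 single-cell libraries on the x axis, where gel is wild type in serum/LIF in gel and the bars are 95% counting intervals. H19, Cdkn1c, Phlda2, Peg10 and Peg3 are low in 2i/LIF and JupHigh, Plagl1 is high in both, and Meg3 lies between 279 and 362 CPM throughout.

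In the Dlk1-Meg3 cluster of chromosome 12, Meg3 stayed between 279 and 362 CPM in all 5 libraries. Meg3, a maternally expressed long non-coding RNA (chromosome 12, 109541001 to 109571726, plus strand), had 362 CPM (349 to 375) in 2i/LIF, 310 (286 to 335) in wild-type serum/LIF, 303 (287 to 320) in JupHigh, 298 (278 to 318) in JupLow and 279 (216 to 356) in gel. The value in 2i/LIF lies above the intervals of the other plastic libraries by counting error, and the other 4 do not differ beyond theirs. Its log2 ratio was 0.026 (-0.099 to 0.15) between JupHigh and JupLow. Rian, which hosts small nucleolar RNAs, had 120 CPM (108 to 133) in JupLow and 157 to 205 in the other libraries, and Mirg, which hosts microRNAs, ranged from 38.1 to 71.0. Dlk1, the protein-coding gene of the cluster, is a paternally expressed growth regulator. It had 14 UMIs in wild-type serum/LIF, 6 in gel (25.4 CPM, 9.32 to 55.3), 20 in JupLow and 2 in JupHigh.

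Between JupHigh and JupLow, 24 members had 20 CPM or more in at least 1 of the 2 libraries. Of these, 8 (33.3%) were lower in JupHigh by 2-fold or more: H19, Peg3, Peg10, Grb10, Ndn, Cdkn1c, Phlda2 and Gnas. Over all 6950 genes at that level, 8.40% were lower by as much. Plagl1 and Zrsr1 (8.33%) were higher by 2-fold or more, against 2.63% of all genes. H19, Ndn and Cdkn1c passed the level only through JupLow, and Plagl1 and Zrsr1 only through JupHigh, as the filter allowed for every gene. The median log2 ratio was -0.39 over the members and -0.13 over all genes. Gnas, which encodes the stimulatory G protein alpha subunit, had 105 CPM (95.4 to 115) in JupHigh and 305 (285 to 326) in JupLow. Ndn, which encodes necdin, had 6.96 (4.70 to 9.93) and 27.8 (22.0 to 34.6). Zrsr1, a splicing-factor gene, had 36.4 (30.9 to 42.6) and 13.9 (9.93 to 18.9), and Kcnq1ot1, at 1.99-fold higher, missed the fold.

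Between 2i/LIF and serum/LIF in wild type, a comparison that shares no library with the previous, 13 of 26 members (50%) were lower in 2i/LIF by 2-fold or more, against 15% of 7470 genes. They were H19, Igf2r, Peg3, Peg10, Sgce, Ppp1r9a, Grb10, Cdkn1c, Phlda2, Zrsr1, Nnat, H13 and Airn. Mest, Snrpn, Plagl1 and Gnas (15.4%) were higher, against 9.71% of all genes, and all 4 of them share exon bases with another gene. These 4 passed the level only through 2i/LIF. H19, Sgce, Ppp1r9a, Grb10, Cdkn1c, Phlda2, Nnat and Airn passed it only through serum/LIF. With each member summed with its same-strand partners, Snrpn turned, and 3 of 26 (11.5%) were higher and 14 (53.8%) lower. The median log2 ratio was -0.77 over the members and -0.031 over all genes. Phlda2 was 28.0-fold lower in 2i/LIF, Cdkn1c 19.7-fold, Grb10 11.7-fold, Peg10 6.19-fold and Peg3 3.09-fold, and Plagl1 was 8.13-fold higher. Of the 8 members lower in JupHigh than in JupLow, 6 (75.0%) were among the 13 lower in 2i/LIF, which is 46.2% of those 13: H19, Peg3, Peg10, Grb10, Cdkn1c and Phlda2. Over all genes, 346 of the 584 lower in JupHigh (59.2%) were also lower in 2i/LIF, which is 30.8% of the 1122 lower there. Of the 2 members higher in JupHigh, Plagl1 (50%) was among the 4 higher in 2i/LIF, against 113 of 183 genes (61.7%) over all genes, which is 15.6% of the 725 higher in 2i/LIF. Zrsr1 went opposite ways, with a log2 ratio of 1.39 between JupHigh and JupLow and of -5.24 between 2i/LIF and serum/LIF, where its serum/LIF value carries the flag. Ndn had 2.90 CPM in 2i/LIF and 17.8 in serum/LIF, under the level minimum, and Gnas had the opposite direction there, with the flag on its serum/LIF value. Among genes that share no exon bases on either strand, 8 of 10 members were past 2-fold in this comparison, against 21.2% of 4806 genes. Between JupHigh and JupLow it was 5 of 9 members, against 12% of 4511 genes, and all of these members were lower.

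**Figure D3:**
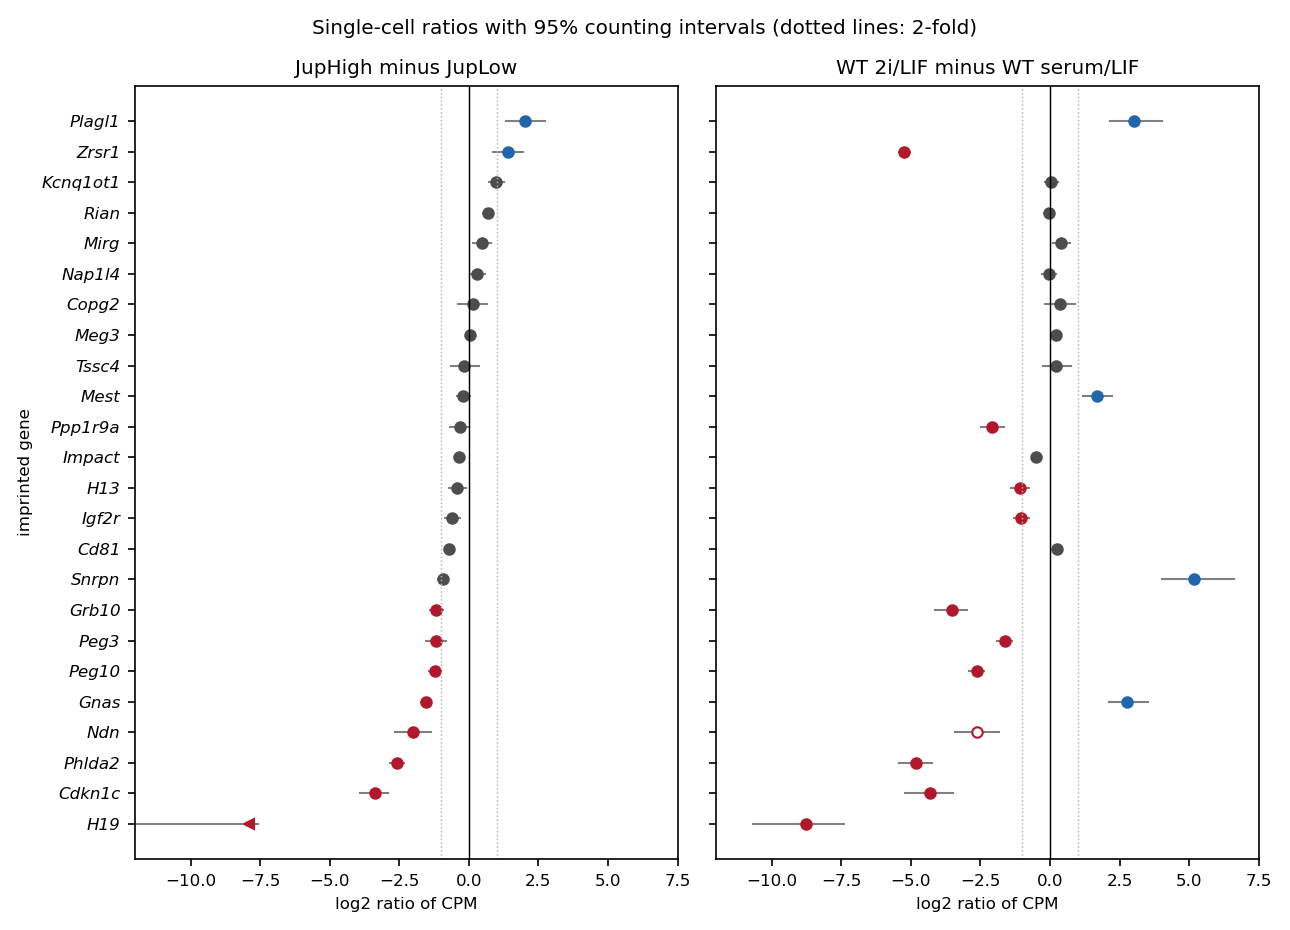
Log2 ratios of CPM with 95% counting intervals for the 24 imprinted genes at 20 CPM or more in JupHigh or JupLow (left), beside the ratio of the same genes between 2i/LIF and serum/LIF in wild type (right). Red points are lower and blue points higher by 2-fold or more, the triangle is a value set at a floor of 3 UMIs, and the open point is under 20 CPM. H19, Cdkn1c, Phlda2, Peg10, Peg3 and Grb10 lie to the left and Plagl1 to the right in both panels.

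Markers of several other cell types moved with these members. Each sum is over the markers that the table lists, so sums over lists of unequal length are not strictly comparable. The 6 trophoblast markers summed to 34.0 CPM in JupLow (5 with UMIs, Elf5 not listed) and 6.50 in JupHigh (4 with UMIs, Elf5 and Krt7 not listed). They summed to 28.2 CPM in wild-type serum/LIF (Elf5 not listed) and 7.48 in 2i/LIF (Elf5, Krt7 and Hand1 not listed). The 8 fibroblast markers summed to 28.5 CPM in JupLow (Dcn at 0, Lum not listed) and 6.26 in JupHigh (Col3a1, Lum and Postn not listed), and to 39.6 in wild-type serum/LIF (Dcn, Lum and Postn at 0) and 3.50 in 2i/LIF (Col3a1, Lum and Postn not listed). The 8 endoderm markers summed to 257 CPM in wild-type serum/LIF, 3.98 in 2i/LIF (Gata6 not listed), 33.7 in JupLow and 18.6 in JupHigh. The 3 neuroectoderm markers summed to 91.7 CPM in JupLow and 10.7 in JupHigh, and to 61.0 in wild-type serum/LIF (Sox1 not listed) and 7.73 in 2i/LIF. The 4 mesoderm markers went the other way between the lines, at 3.82 CPM in JupLow and 6.26 in JupHigh, and had 6.44 and 4.59 in the wild-type pair, with Mesp1 listed in JupHigh alone of these 4. The ES cell markers summed to 1443 in JupLow and 3244 in JupHigh. Their part in the member values was not tested.

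H19 was held by few cells. After every cell was thinned to 1000 UMIs, 10.8% of wild-type serum/LIF cells (8.6 to 13.2, exact binomial; 16.4% before thinning) and 7% of JupLow cells (5.62 to 8.59; 13.1%) had an H19 UMI. In gel 5.36% did, in 2i/LIF 0.0346%, and in JupHigh 0 of 2153 cells, which allows a share of cells with a UMI of up to 0.139% (3 counts of the total). In the 61 wild-type serum/LIF cells with 2 or more UMIs of endoderm markers, described further on, 3 cells (4.92%, 1.03 to 13.7, before thinning) had 1 H19 UMI each. Of the 611 cells without such markers 16.4% (13.5 to 19.5) had H19, at a similar median depth of 2369 against 2408 UMIs. The 5% of cells with the most H19 carried 80.0% of its UMIs in wild-type serum/LIF and 79.7% in JupLow, with up to 39 and 73 UMIs in 1 cell. The same share of cells carried 36.3% and 34.9% of Meg3 UMIs and 52.4% and 37.2% of Phlda2 UMIs. Several members with fewer UMIs were more concentrated than H19: in wild-type serum/LIF, Igf2 (100%, 63 UMIs), Cdkn1c (88.9%, 72 UMIs), Airn (88.9%, 54 UMIs) and Nnat (87.0%, 54 UMIs). In JupLow these were Nnat (98.0%, 101 UMIs), Ndn (81.2%, 80 UMIs) and Copg2, Commd1 and Tssc4 (100% each, 53 to 58 UMIs). The number of UMIs of such low genes itself limits how many cells can hold one. Meg3 was found in 23.7% of thinned wild-type serum/LIF cells, 22.1% in 2i/LIF, 19.2% in JupLow and 23.5% in JupHigh. For Phlda2 the shares were 8.69%, 0.346%, 17.8% and 3.34%. In the endoderm-marker cells of wild-type serum/LIF, before thinning, 23% (13.2 to 35.5) had Meg3 and 4.92% (1.03 to 13.7) Phlda2, against 40.6% (36.7 to 44.6) and 18.7% (15.6 to 22.0) of the cells without those markers. Barcodes under 500 UMIs, taken as free RNA, held Phlda2 at 85.2 CPM in wild-type serum/LIF, 203 in JupLow and 32.8 in JupHigh, close to the cell levels, and Meg3 at 205, 177 and 190 CPM. How much of these shares is free RNA was not tested, so they are not read as shares of expressing cells.

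The cells rich in H19 were then described, a step chosen after this concentration had been seen. In wild-type serum/LIF, 28 of 725 cells (3.86%) had 3 or more H19 UMIs and held 75.8% of them, while 91 cells had 1 or 2 and 606 had none. In JupLow, 39 of 1200 cells (3.25%) held 71.7%, with 118 cells at 1 or 2 and 1043 at none. These cells were deeper, with medians of 4455.5 and 3169 UMIs against 2356 and 2147 in cells without H19, and levels are given in CPM, which scales for depth. A count of 3 is a range of cells and not a cell type, and no doublet caller was used.

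In these cells Meg3 was at 152 CPM (91.6 to 238) against 328 (301 to 357) in wild-type serum/LIF, and at 134 (78.0 to 214) against 311 (289 to 334) in JupLow. Rian was also lower in both, with log2 ratios of -0.80 and -1.20. Peg10 was higher, at 425 CPM (318 to 555) against 111 (95.4 to 128) in wild type and at 276 (192 to 383) against 145 (131 to 161) in JupLow. Cd81 had log2 ratios of 0.72 and 0.93. Nnat, a paternally expressed gene named for neuronatin, had 1.58 and 1.61, on 8 and 11 UMIs. Igf2 was at 200 CPM (130 to 296) against 15.3 (9.92 to 22.6) in wild type, carried by 6 of the 28 cells, of which 1 had 17 of the 25 UMIs. At 20 CPM or more in either group of cells, 4 of 23 members (17.4%) had a ratio with its interval above 0 in wild type, against 10.1% of all genes, and Meg3 and Rian (8.70%) lay below 0, against 1.86%. In JupLow 7 of 23 members (30.4%) lay above 0, against 13.8%, and Meg3 and Rian (8.70%) below, against 1.75%. The 7 were Peg10, Cd81, Nnat, Sgce, Cdkn1c, Impact and Gnas. Igf2 in wild type and Sgce in JupLow, on 6 UMIs, passed the level only through the cells rich in H19, as the filter allowed for every gene. Phlda2 (-0.69 and -0.27) and Grb10 (-0.77 and 0.39) had intervals that hold 0 in both libraries.

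Trophoblast and fibroblast markers were higher in the same cells. The trophoblast list had 136 CPM against 19.6 in wild type, on 17 UMIs of Cdx2, Gata3, Krt7 and Hand1, and 181 against 23.4 in JupLow, on 23 UMIs of those 4 genes, with Eomes at 0 in both. Their part in the member values of these cells was not tested. The fibroblast list had 120 against 35.5 in wild type, on 15 UMIs of Col1a1, Col1a2, Col3a1 and Thy1. Dcn, Lum, Postn and Pdgfrb were at 0 there. In JupLow it had 126 against 23.4, on 16 UMIs of Col1a1, Col1a2, Col3a1 and Postn, with Thy1, Dcn and Pdgfrb at 0. Col1a1 led in both. The ES cell list stayed near the level of the other cells, at 1065 against 1244 and 1401 against 1439. The endoderm list had 32.0 against 295 CPM in wild type and 39.4 against 30.8 in JupLow. Neuroectoderm markers had 112 against 55.2 in wild type, on 13 UMIs of Nes and 1 of Pax6. In JupLow they had 63.0 against 92.8, on 8 UMIs of Nes alone. Mesoderm markers, on 1 and 2 UMIs, had 8.01 against 5.52 and 15.7 against 3.28.

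**Figure D4:**
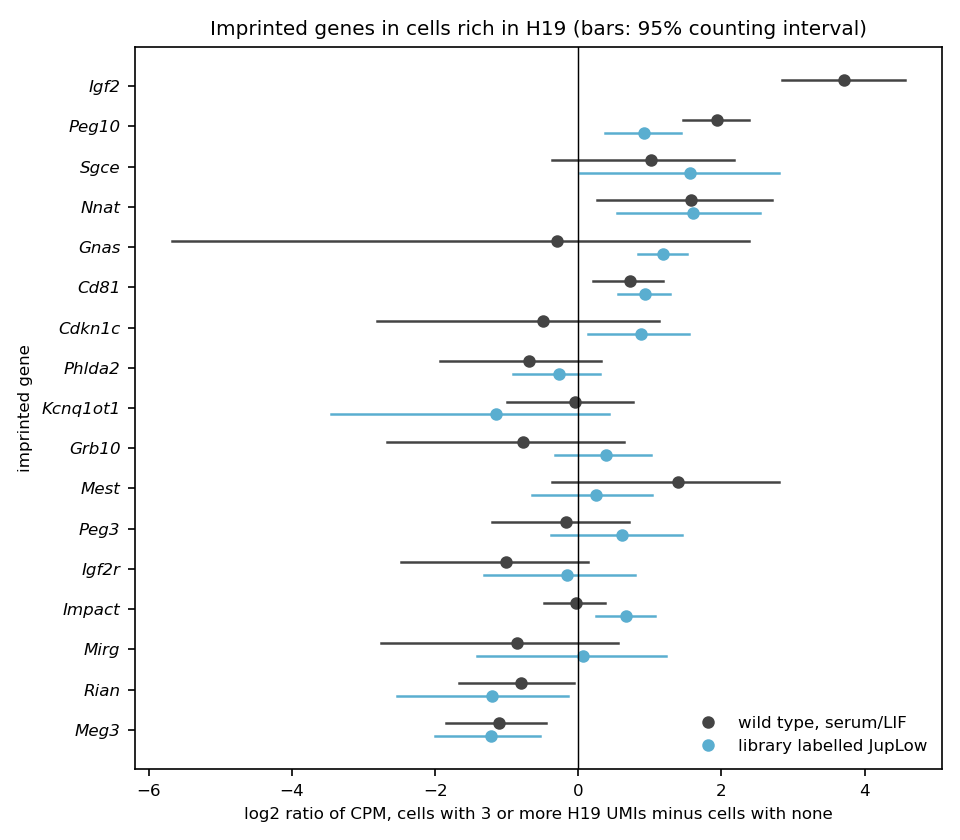
Log2 ratio of CPM between cells with 3 or more H19 UMIs and cells with none, with 95% counting intervals, for 17 imprinted genes, in the wild-type serum/LIF library and the library labelled JupLow. Peg10, Cd81 and Nnat lie to the right of 0 and Meg3 and Rian to the left in both libraries, and Igf2 has no UMI in JupLow.

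Cells with endoderm markers were another group, and H19 was low in it. In wild-type serum/LIF, 61 of 725 cells had 2 or more UMIs of the 8 endoderm markers, with 11 cells at that limit and 53 just below it, while the other libraries had 1 to 8 such cells. H19 was at 18.3 CPM (3.78 to 53.6) in them against 221 (199 to 245) in the 611 cells with none. Meg3 (122 against 330 CPM), Rian (61.2 against 221), Peg10 (24.5 against 158), Phlda2 (18.3 against 103) and Grb10 (6.12 against 54.1) were also lower. Igf2r, the receptor that clears IGF2, was higher at 196 CPM (134 to 276) against 81.5 (68.4 to 96.3). Airn, the antisense RNA that silences Igf2r on the paternal copy, was higher too, at 79.5 (42.3 to 136) against 23.2 (16.5 to 31.7). At 20 CPM or more in either group of cells, 2 of 23 members (8.70%) were higher with intervals apart, against 13% of all genes, and 8 (34.8%) were lower, against 4.79%. Of the lower members, H19, Mirg, Ppp1r9a, Grb10 and Phlda2 passed the level only through the cells without these markers. Over libraries, Igf2r had 89.2 CPM in wild-type serum/LIF and 77.8 in JupLow, which do not differ beyond counting error, and 43.7 in 2i/LIF. Airn had 26.8, 10.1 and 0.483 CPM in the same libraries and 16.9 in gel, whose interval overlaps that of wild-type serum/LIF.

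Against wild type in serum/LIF, both plakoglobin lines share that control and its flag. JupHigh had 8 of 25 members (32.0%) lower by 2-fold or more, against 14.5% of all genes, and 4 (16%) higher, against 6.14%. With same-strand partners summed, 9 (36.0%) were lower and 3 (12%) higher, since Snrpn turned. Without summing, the lower members were H19, Peg3, Peg10, Sgce, Cdkn1c, Phlda2, Zrsr1 and Airn, and the higher were Mest, Snrpn, Plagl1 and Gnas. The higher members passed the level only through JupHigh, and H19, Sgce, Cdkn1c and Airn only through wild type. JupLow had 3 of 26 lower (11.5%), namely Igf2, Zrsr1 and Airn, against 7.02% of all genes, and 6 higher (23.1%), against 4.17%. With partners summed, Snrpn turned here too, and 4 were lower (15.4%) and 5 higher (19.2%). Of the 6 higher without summing, Mest, Snrpn and Gnas had their lowest value of all 5 tables in the control. Mest, Snrpn and Gnas passed the level only through JupLow, and Igf2, Zrsr1 and Airn only through wild type. Grb10 (1.32), Cdkn1c (1.41) and Phlda2 (1.30) had log2 ratios with intervals above 1, and of these Cdkn1c shares exon bases with a gene on the other strand. Member medians were -0.24 and -0.10, against -0.18 and -0.0019 over all genes.

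The ratios of several members against that table rest on single values in it. Snrpn, a splicing-protein gene, had 2.97 CPM in wild-type serum/LIF and 106 in 2i/LIF, 707 in gel, 206 in JupLow and 108 in JupHigh. Its same-strand partner Gm38393 had 573 CPM there and 11.1 to 25.4 in the other tables. With both summed, the log2 ratio against wild-type serum/LIF turned from 5.16 to -2.29 for 2i/LIF, from 6.11 to -1.38 for JupLow and from 5.19 to -2.14 for JupHigh, and the ratio of gel fell from 7.89 to 0.35. Zrsr1 had 1127 CPM in that table and 13.9 to 36.4 in the others, and its host gene Commd1 was not listed there. Gnas had 9.42 CPM against 64.6 to 305, and Mest, a hydrolase-like gene of mesoderm, had 17.8 against 57.0 to 110. Mcts2, a retrogene inside an intron of H13, was not listed there. H13, a signal peptide peptidase gene, had 63.9 CPM in wild-type serum/LIF, 63.2 in JupLow, 47.3 in JupHigh, 30.2 in 2i/LIF and 25.4 in gel.

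In gel against plastic, both in serum/LIF, 17 of 27 members stayed within 2-fold. The 5 lower (18.5%, against 13.2% of all genes) were H19, Kcnq1ot1, Tssc4, Zrsr1 and H13, and the 5 higher (18.5%, against 7.21%) were Dlk1, Mest, Snrpn, Ndn and Gnas. All of the higher members passed the level only through gel, and Tssc4 only through plastic. Mest, Snrpn and Gnas have their lowest value of all 5 tables in this plastic control, whose table carries the flag on overlapping genes, and with same-strand partners summed Snrpn was within 2-fold and 4 (14.8%) were higher. Among genes that share no exon bases on either strand, 2 of 12 members (16.7%) were past 2-fold, against 16% of 4806 genes, so these 12 moved about as often as such genes at large. With the overlapping members kept, 8 of 20 (40.0%) were past 2-fold at 50 CPM, against 15.7% of 4040 genes. At 1.5-fold it was 15 of 27 (55.6%), against 39.2% of 7444 genes. The member median was -0.30, against -0.053. The gel library had 236195 UMIs, so the intervals are wide: H19 had a log2 ratio of -1.56 (-2.36 to -0.87), Kcnq1ot1 -1.12 (-2.14 to -0.25), H13 -1.33 (-2.80 to -0.17), Ndn 1.63 (0.59 to 2.57) and Dlk1 1.87 (0.21 to 3.34). The interval of Tssc4, on 2 UMIs in gel, holds 0. Meg3 (-0.15), Peg3 (-0.66), Peg10 (-0.52), Phlda2 (-0.09) and Cdkn1c (0.73) all had intervals that hold 0. Marker lists differed between gel and plastic too. The endoderm list summed to 84.7 CPM in gel (Foxa2 and Pdgfra at 0) against 257, the fibroblast list to 4.23 (Thy1 alone with UMIs, Lum and Postn not listed) against 39.6, and the trophoblast list to 16.9 (Cdx2 and Krt7 at 0, Elf5 and Hand1 not listed) against 28.2. The neuroectoderm list summed to 114 in gel (Nes alone with UMIs, Pax6 and Sox1 at 0) against 61.0 (Sox1 not listed). The mesoderm list summed to 12.7 in gel, which is 3 UMIs (Mixl1 and Mesp1 at 0), against 6.44 (Mesp1 not listed). The ES cell list summed to 1863 in gel against 1240 on plastic, where Sox2 is not listed. Their part in the member values was not tested.

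Copg2, a coat protein gene that overlaps Mest, ranged from 18.3 to 25.4 CPM over the 5 libraries, and Impact, a translation regulator, from 225 in JupHigh to 491 in gel. None of the remaining 7 members reached 20 CPM in a single-cell table that lists it. Asb4, Ascl2, Magel2, Slc22a18, Usp29 and Zim1 reached at most 16.9 CPM, on 4 UMIs of Magel2 in gel, and Snurf was listed in no single-cell table.

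The bulk libraries asked the question of gel against plastic in 2i/LIF with replicates. Of the 24 listed members, 16 had enough reads to be tested and 5 were called by limma with Benjamini-Hochberg adjustment over 7878 genes. These were 3 higher in gel (18.8%, against 18.3% of all genes) and 2 lower (12.5%, against 18.6%), so the members were called about as often as genes at large. Their median log2 fold change was 0.092, against -0.022 over all genes. H19 is not in the bulk table, nor are Igf2, Cdkn1c, Peg10, Dlk1, Gnas, Nnat, Airn, Ascl2, Asb4, Magel2, Slc22a18, Snurf and Zim1. In bulk RNA, fewer cells that express a gene and less RNA per cell cannot be told apart.

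Impact, which inhibits activation of the kinase GCN2, had scaled read counts of 313, 335 and 381 in gel and 857, 1010 and 953 on plastic. All gel libraries lay under all plastic ones, with means of 343 ± 34.6 and 940 ± 77.6 (SD, n = 3 libraries each). The log2 fold change was -1.46 (SE 0.10, limma adjusted p = 5.92e-08), and it was called in all 15 alternatives, from -1.53 to -1.39. In the serum/LIF single cells, Impact was not lower in gel, at 491 CPM against 419 on plastic. The log2 ratio there was 0.23 (-0.064 to 0.51), and the difference between the assays was not tested. In bulk, Mest had 39.5, 43.0 and 31.6 in gel and 71.9, 66.1 and 80.5 on plastic, again without overlap. Its log2 fold change was -0.94 (SE 0.18, limma adjusted p = 5.83e-04). Copg2, which overlaps Mest on the other strand, had a log2 fold change of -0.50 (limma adjusted p = 0.243).

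Plagl1 had 126, 204 and 128 in gel and 91.0, 83.3 and 78.9 on plastic. Every gel library was above every plastic one, and the second gel library was the highest. The log2 fold change was 0.82 (SE 0.17, limma adjusted p = 0.00101), and 0.59 without that library. Kcnq1ot1 had 95.9, 72.4 and 57.7 in gel and 56.9, 46.6 and 33.4 on plastic, so the groups were apart by a small margin. Its log2 fold change was 0.72 (SE 0.21, limma adjusted p = 0.0127). The call was lost without the first gel library (limma adjusted p = 0.0851) and without the third plastic library (0.0715). Mcts2 had 71.1, 65.1 and 55.0 in gel and 40.3, 48.1 and 44.0 on plastic, with 0.52 (SE 0.17, limma adjusted p = 0.0252). That call was lost without the first or second gel library (limma adjusted p = 0.0924 and 0.0583), without the first plastic library (0.111) and with DESeq2 (0.0632).

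The other 11 members tested were not called. Meg3 had 15.8, 16 and 12.4 in gel and 15.4, 8.61 and 9.11 on plastic, and Rian 22.6, 19.6 and 24.7 against 22.9, 23.1 and 15.2. Both overlapped between groups, with log2 fold changes of 0.44 (limma adjusted p = 0.331) and 0.15 (0.691). Nap1l4 had gel values of 130, 118 and 94.8, under the plastic values of 146, 130 and 143 (the 2 values printed as 130 differ by less than the rounding), and missed the threshold (limma adjusted p = 0.0985). Cd81 had 535, 557 and 550 against 529, 502 and 460, with a log2 fold change of 0.14 (limma adjusted p = 0.26). Igf2r, Peg3, Copg2, Snrpn, Tssc4, Commd1 and H13 had log2 fold changes between -0.50 and 0.33 and overlapping groups. Mirg, Usp29, Sgce, Ppp1r9a, Grb10, Ndn, Phlda2 and Zrsr1 were too low to test, with no value above 11.1. For Phlda2 the values were 2.26, 8.59 and 4.12 in gel and 4.99, 3.91 and 1.52 on plastic, and for Grb10 7.90, 11.1 and 8.24 against 6.65, 7.04 and 7.59.

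**Figure D5:**
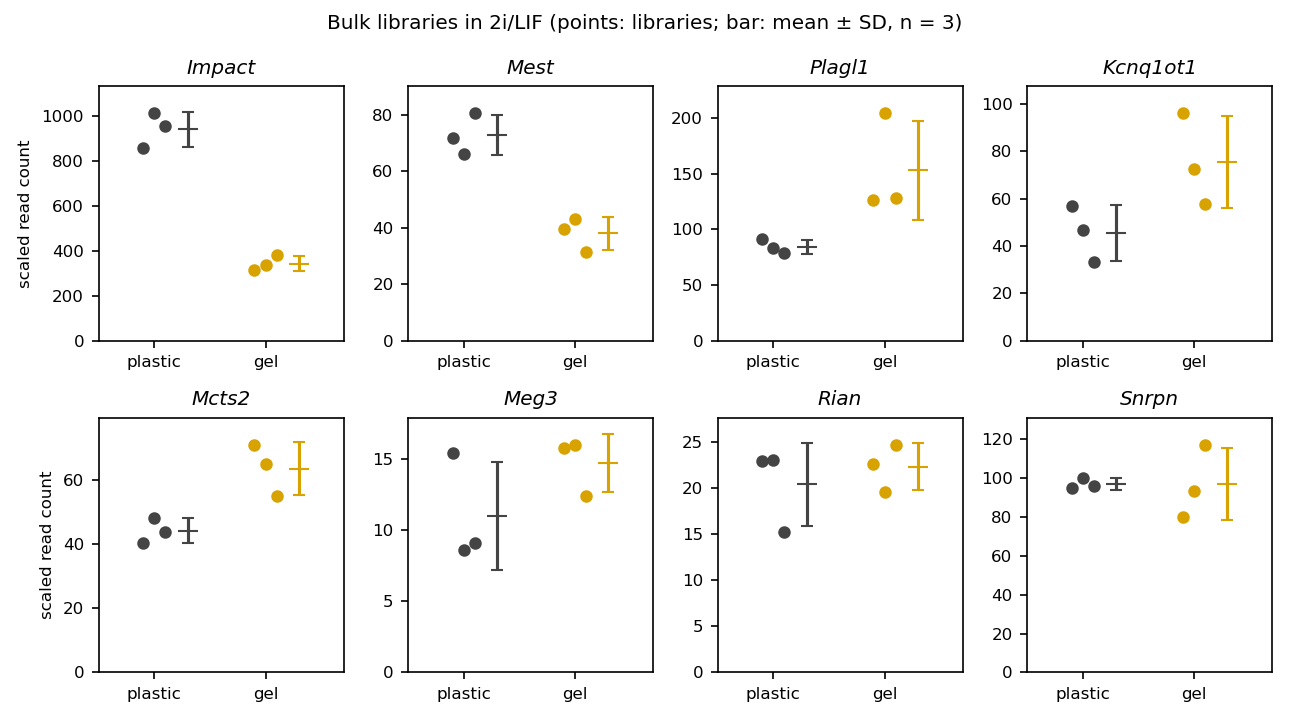
Scaled read counts (y axis, from 0) of 8 imprinted genes in the 3 plastic and 3 gel bulk libraries in 2i/LIF, with the mean ± SD of each group beside the points. Impact and Mest lie lower in gel, Plagl1, Kcnq1ot1 and Mcts2 higher, and Meg3, Rian and Snrpn overlap.

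Imprint-maintenance genes, not all of which act on DNA methylation itself, were read from a list of 18. In bulk, 17 were listed and 16 tested: 6 were called higher in gel, 3 lower and 7 not called. Over all genes 18.3% were called higher and 18.6% lower. Trim28, the co-repressor of ZFP57, had a log2 fold change of 0.97 (limma adjusted p = 1.59e-06). The maintenance methyltransferase Dnmt1 had 0.73 (limma adjusted p = 0.00311), its partner Uhrf1 0.77 (7.53e-05) and the dioxygenase Tet1 0.76 (2.80e-04). Zfp57 (-0.38, limma adjusted p = 0.0424), Dppa3 (-0.68, 0.00143) and Hells (-0.29, 0.0356) were lower. In single cells, 2i/LIF had Dnmt3a, Dnmt3b and Dnmt3l, the de novo methylation genes, below serum/LIF by 2.50-fold, 3.70-fold and 8.64-fold. Uhrf1 (2.34-fold), Tet2 (2.40-fold) and Dppa3 (6.05-fold) were above it, and the other 10 of 16 stayed within 2-fold. Of all genes, 15% were lower and 9.71% higher. Between JupHigh and JupLow, Dnmt3a was 2.85-fold lower, Tet2 was 2.75-fold higher and 14 of 16 stayed within 2-fold, where 8.40% of all genes were lower and 2.63% higher. In gel against plastic in serum/LIF, 13 of 14 stayed within 2-fold, where 13.2% of all genes were lower and 7.21% higher. Uhrf1 was lower in gel there, opposite to bulk, with a log2 ratio of -1.25 (-2.40 to -0.29) on 9 UMIs in gel. Trim28 had -0.21 (-0.42 to -0.00067), Dnmt1 0.13 (-0.48 to 0.69) and Tet1 -0.42 (-0.91 to 0.03).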

How the data were processed

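The members and gene lists were chosen with earlier results of these data known. Bulk values are a signal: the deposited read counts divided by a factor per library, as judged from the values, of which 100% were whole reads within 0.01. Single-cell values are whole UMI counts per barcode as deposited by the authors. The submitters' processing notes name FastQC, STAR, featureCounts, DESeq2, Scanpy and builds mm10 and GRCm38, without roles. Whether counting used strand is not given in the sources used here. The title, not the description, gave the number of the second plastic library, and the names of the plastic columns contain GEL as well as TCP.

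Bulk depth was 637235 to 2583256 recovered reads. Groups were compared with limma 3.58.1 on log2(value + 0.5), which understates changes of low genes, over genes passing edgeR's filter, with adjusted p at most 0.05. Alternatives used edgeR 4.0.16, DESeq2 1.42.0, other pseudocounts, filters and scalings, and left-out libraries. The fit was also run on simulated data with at most 200 changed genes. That setting differs from the data, where 2906 of 7878 genes were called, so no conclusion is drawn from it. Single-cell UMIs were summed per library over barcodes with at least 1000 UMIs, without doublet removal. Poly-G barcodes and unnamed columns (0.00509% to 0.499% of UMIs) were left out, as was 1 incomplete gel row. Ratios used genes listed in both tables with 20 CPM in the higher. Intervals are exact at 95% (Poisson for levels, conditional binomial for ratios, Clopper-Pearson for shares above 0, and 3 counts of the total for a share of 0). Gene positions come from GENCODE M21. Named genes are all members, Jup, overlap partners, the imprint-maintenance list and the markers.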

Additional observations from a re-analysis of the deposited data

Results flagged for a closer look

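Cdkn1c and Phlda2 lay on opposite sides of wild type in serum/LIF in the 2 plakoglobin lines. The log2 ratio of Cdkn1c was -1.98 (-2.58 to -1.40) in JupHigh and 1.41 (1.03 to 1.81) in JupLow. For Phlda2 it was -1.30 (-1.61 to -0.99) in JupHigh and 1.30 (1.06 to 1.54) in JupLow. Each condition was 1 library, so the difference between the lines was not tested.

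Mest and Kcnq1ot1 differed in direction between the serum/LIF single cells and the 2i/LIF bulk libraries. Mest in gel against plastic had a log2 ratio of 2.63 (1.84 to 3.39) in single cells and a log2 fold change of -0.94 in bulk. Kcnq1ot1 had -1.12 (-2.14 to -0.25) in single cells and 0.72 in bulk. The assays also differed in cell line and medium, and the plastic single-cell value comes from the wild-type serum/LIF table, which departs from the others at overlapping genes. The difference between the assays was not tested.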

How the results depend on the processing

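In bulk, 5 members were called, and the count ranged from 3 to 5 when each library was left out in turn. With an added absolute log2 fold change of 1 or more, 1 was called. With the replicate block, 5 were called. Libraries with the same number had correlated deviations of -0.052, 0.016 and 0.024, so the numbers were not taken to pair them.

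In single cells, members past 2-fold numbered 17 for 2i/LIF against serum/LIF, and 11 of 18 at 50 CPM, against 23% of 4108 genes. For JupLow against wild type they numbered 9, and 14 of 26 at 1.5-fold, against 21.6% of 7169 genes. An alternative without members that share exon bases on either strand was chosen after seeing the data and leaves fewer members by construction. Its counts were 8 of 10 for 2i/LIF against serum/LIF, against 21.2% of all genes without such overlaps, and 2 of 12 for gel against plastic, against 16%. They were 5 of 9 for JupHigh against JupLow, against 12%, 5 of 10 for JupHigh against wild type (12 of 25 with them), against 17.4%, and 3 of 11 for JupLow against wild type, against 6.33%. For gel against plastic only this alternative gave a share near that of genes at large. With all members the gel count was 10 of 27, with 5 lower (18.5%, against 13.2% of all genes) and 5 higher (18.5%, against 7.21%). At 50 CPM 40.0% of members were past 2-fold in gel, against 15.7%, and at 1.5-fold 55.6%, against 39.2%. Summed with its same-strand partner, Snrpn reversed to -2.29, -2.14 and -1.38 for 2i/LIF, JupHigh and JupLow against wild-type serum/LIF.

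The gel library had 112 cells, each single-cell condition was 1 library, and both limit what these values can show.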
